A study of Homo sapiens with 6 samples.

Results

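The cytosolic translation initiation and elongation factors were examined in HBEC3kt, an immortalised human bronchial epithelial cell line, with and without the S34F change in the splicing factor U2AF1. The set was given as 34 gene symbols, and a gene belonged to it when the Ensembl gene ID attached to an isoform in the deposited count table mapped to one of them. This found 33 of the 34 genes among 11034 Ensembl genes. EEF1G had no row under its own ID, and EIF4A1 held 89 reads under its own. Most reads of these 2 genes sat under retired Ensembl IDs and are described separately. The retired IDs were recognised by transcript IDs of the 2 genes, and the other models under them were assigned by where they begin. Full-length cDNA made from poly(A) RNA was read on an Oxford Nanopore sequencer in 6 libraries, 3 wild type and 3 with U2AF1 S34F. In each genotype, replicates 1 and 2 are separate cell isolates marked B1, and replicate 3 is isolate 2 again, marked B2. The sources used here give no meaning for the marks and do not say whether an isolate is a single clone. The p-values below measure the spread among these libraries, 2 of which in each genotype come from the same isolate. For splicing events and 3′ ends, edgeR judged each feature by a spread shared across features and not by its own.

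Translation of a message begins when eIF2 delivers the initiator tRNA to the small ribosomal subunit with eIF1, eIF1A, eIF3 and eIF5. The eIF4 factors bind the cap and unwind the leader, and eIF5B joins the large subunit. Elongation is then driven by eEF1A, which brings aminoacyl-tRNA, by its exchange factor eEF1B, and by the translocase eEF2. U2AF1 is the small subunit of U2AF and reads the AG that closes an intron. S34F is known to shift the use of 3′ splice sites according to the base before that AG.

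The sequences that follow are at some of the splicing events described later. Among them only the EIF4A1 intron was called by edgeR, and the called EEF1G intron is not shown. The sequences were read from GENCODE release 29 transcripts on GRCh38, whereas event positions given later are those of the deposited models, on hg19. The 4 that show an intron end or an alternative 3′ splice site carry the last 3 bases of the intron or of the longer intron in capitals, and all 4 end in CAG. In EIF4A1 the last 30 bases of the 120-base intron are shown (chr17:7577797-7577826, plus strand), and in EIF3M the last 30 bases of the 78-base segment (chr11:32586982-32587011, plus strand). The EEF1A1 segment of 75 bases (chr6:73518536-73518610, minus strand) and the EEF2 segment of 12 bases (chr19:3977336-3977347, minus strand) are coding in GENCODE and keep the reading frame.
EIF4A1 intron end: ggtctgctgcatatttgttttctcttcCAG
EIF3M segment end: tcagttttataatagagcaatcctcaaCAG
EEF1A1 segment: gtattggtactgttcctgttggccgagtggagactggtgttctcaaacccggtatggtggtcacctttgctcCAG
EEF2 segment: tgtccagagCAG

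The cassette exons of EIF4H (chr7:74190227-74190306, plus strand) and EIF3K (chr19:38632410-38632496, plus strand) are shown with the last 20 bases of the intron before them in lower case and the exon in capitals. The EIF4H exon has 60 bases, or 20 codons, and its skipping keeps the frame. The EIF3K exon has 67 bases, and its skipping shifts the frame. Both exons follow a CAG.
EIF4H exon: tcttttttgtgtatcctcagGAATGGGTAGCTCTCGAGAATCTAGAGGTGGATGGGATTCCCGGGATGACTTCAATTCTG
EIF3K exon: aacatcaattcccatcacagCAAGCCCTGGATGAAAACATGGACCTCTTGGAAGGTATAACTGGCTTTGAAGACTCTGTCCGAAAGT

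The libraries held 451540 to 1720292 reads assigned to isoforms. The 33 members took 92921 reads, 1.03% to 1.54% of each library, and 25.7% of these were EEF1A1. Of 10 bronchial basal epithelial markers, all were measured, with a summed level of 6093 to 7427 CPM, read counts scaled to library size, in wild type and 5690 to 9383 in S34F. Within them LAMB3 fell, from 1982, 2443 and 2100 CPM in wild type to 784, 707 and 1031 in S34F (log2 fold change -1.39, edgeR adjusted p 0.0290). KRT5 had 418, 289 and 531 CPM in wild type and 1427, 739 and 918 in S34F, with an adjusted p of 0.0512, and the groups overlapped for neither. No read was listed for the 6 fibroblast, 3 endothelial, 2 ciliated and 3 secretory markers, and of 5 blood markers only CD14 had reads, at up to 5.09 CPM. In bulk RNA, fewer cells with a message and less of it per cell cannot be told apart.

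No member passed the test between the genotypes at the gene level. All 33 members found by ID passed the low-count filter, and 0 had an adjusted p under 0.05 (edgeR quasi-likelihood test, Benjamini-Hochberg adjustment over 7033 genes and loci), against 3.24% of all genes and loci tested. The count was also 0 in DESeq2 and limma-voom. In 16 of the 33 members the direction of the log2 fold change was the same in every alternative run. An unadjusted p under 0.05 was reached by 5 of the 33 members, 3 higher and 2 lower in S34F, and by 17.0% of all tested. The median log2 fold change was 0.12 over the members and 0.02 over all tested. The 3 S34F libraries lay all above or all below the 3 wild-type libraries for 2 members, EIF3L and EIF2S2, and for 13.1% of all tested. Added up, the members stood at 13102, 14556 and 14502 CPM in wild type and 13752, 13809 and 13711 CPM in S34F, so the total overlapped.

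**Figure D1:**
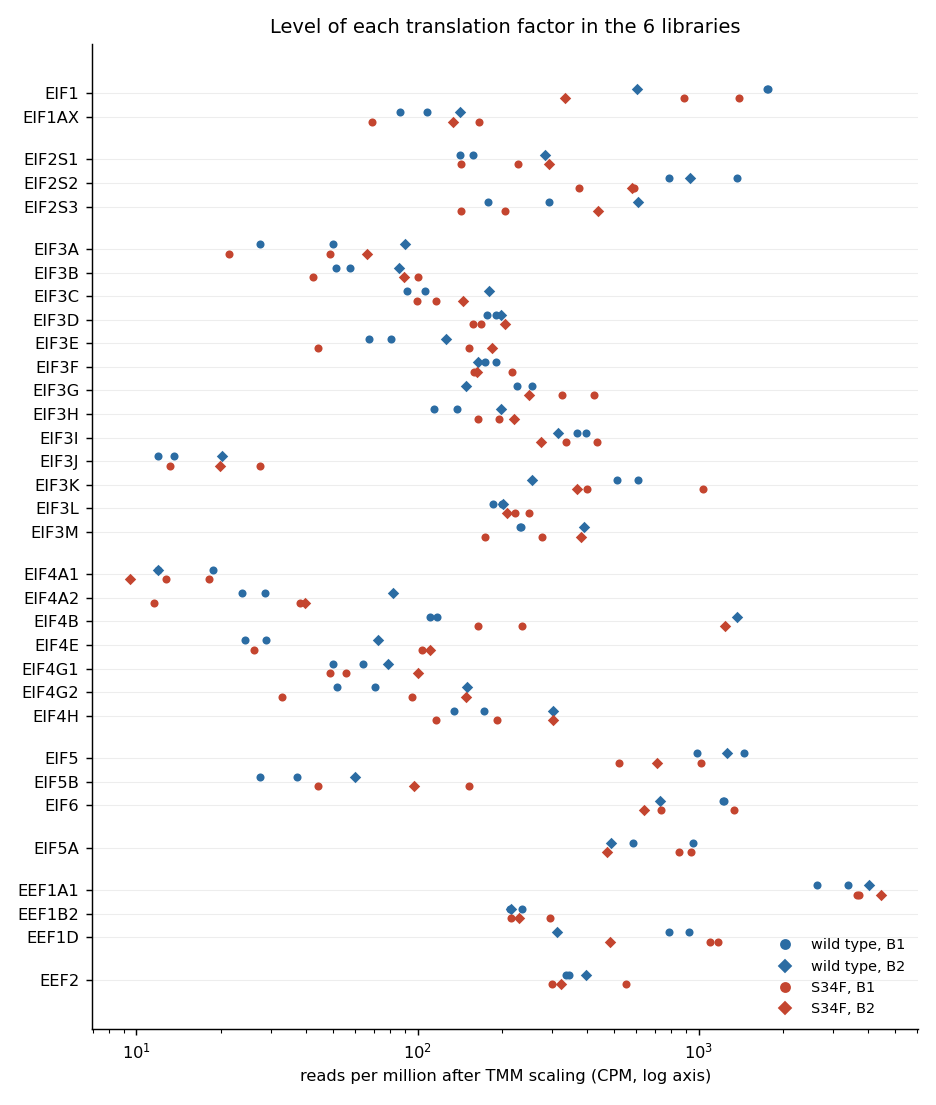
Level of each of the 33 members in each library, in CPM after TMM scaling on a log axis, grouped by factor; blue is wild type, red is S34F, circles are B1 and diamonds are B2 libraries. The genotypes overlap for all members but EIF2S2, lower in S34F, and EIF3L, higher in S34F, and the B2 diamonds stand apart for EIF4B and EIF1.

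EIF1, which keeps the scanning ribosome open until a start codon is found, had 1759, 1753 and 603 CPM in the wild-type libraries and 885, 1391 and 333 CPM in the S34F libraries. Within each genotype the B2 library was the lowest, and the groups overlapped. The log2 fold change was -0.70 ± 0.32 (SE) with an adjusted p of 0.273. Without S34F replicate 2 it was -0.94 with an adjusted p of 0.0426, and over all alternatives the adjusted p ran from there to 1.000. The log2 difference was -0.66 among the B1 libraries and -0.85 in the B2 pair. EIF1AX, the partner eIF1A, had 86.4, 108 and 142 CPM in wild type and 69.0, 166 and 133 CPM in S34F, with overlapping groups.

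Among the 3 subunits of eIF2, the largest difference was in EIF2S2, the beta subunit, which contacts eIF5 and eIF2B. EIF2S2 had 785, 1368 and 930 CPM in wild type and 375, 590 and 579 CPM in S34F. Every S34F library was below every wild-type library, with means of 1028 ± 304 and 515 ± 121 CPM (SD, n = 3 each). The log2 fold change was -0.999 ± 0.338 (SE), and the adjusted p was 0.139, so the difference did not pass. It did pass without S34F replicate 2, at -1.16 and an adjusted p of 0.0128, and with no filter on low counts, at -1.18 and 0.0247. Over all alternatives the adjusted p ran from 0.0128 to 1.000. The log2 difference was -1.14 in the B1 libraries and -0.68 in the B2 pair.

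The lower reading of EIF2S2 was spread over its isoform models. The gene had 25 models, and 8 of them held at least 5% of its reads each, 62.9% together. All 8 had a lower mean CPM in S34F, and in 7 of them the 3 S34F libraries were all below the 3 wild-type libraries. The models are parts of a gene total that was itself lower in every S34F library, so they are not independent readings. The most abundant one, with 9 exons, had 98.9, 173 and 152 CPM in wild type and 52.6, 113 and 73.7 CPM in S34F, and was the exception. The test of isoform usage gave EIF2S2 an adjusted p of 1.000.

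**Figure D2:**
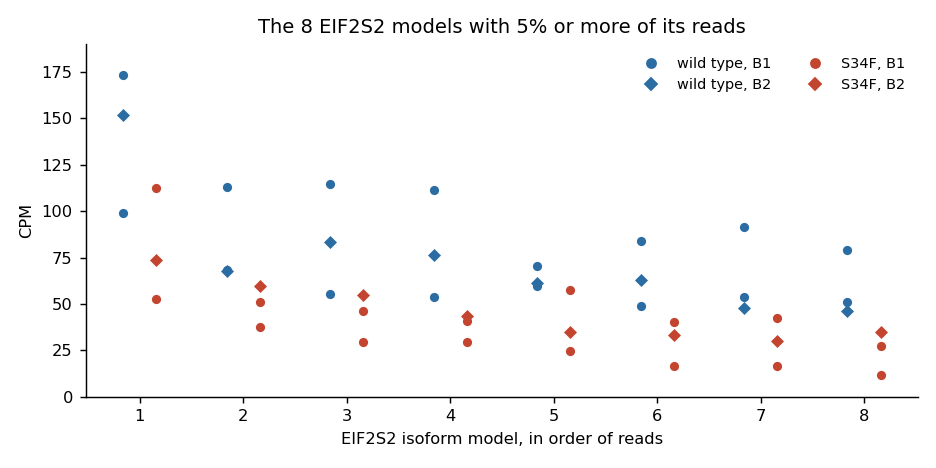
CPM of the 8 EIF2S2 isoform models with 5% or more of the gene's reads, in order of their reads; blue is wild type, red is S34F, circles are B1 and diamonds are B2 libraries. The red points lie below the blue in all models but the first and overlap only there.

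The other 2 subunits showed no such separation. EIF2S1, the alpha subunit that stress kinases phosphorylate, had 142, 158 and 284 CPM in wild type and 143, 227 and 294 CPM in S34F. EIF2S3, the gamma subunit that binds GTP and the initiator tRNA, had 179, 294 and 610 CPM in wild type and 143, 204 and 439 CPM in S34F. In both genes the B2 library was the highest of its genotype. The log2 fold changes were 0.21 ± 0.28 for EIF2S1 and -0.46 ± 0.30 for EIF2S3 (SE).

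All 13 subunits of eIF3, the scaffold that bridges the small subunit to eIF4G, were measured. Of these 0 were called, 8 had a log2 fold change above 0 and 5 below, and the median was 0.21. EIF3G alone had an unadjusted p under 0.05. The direction turned in at least 1 alternative for 8 of the 13 subunits, among them EIF3E (0.45, and -0.07 without S34F replicate 2), EIF3B (0.29, and -0.13 without S34F replicate 1) and EIF3K (0.42, and -0.04 without S34F replicate 1). The median was 0.01 without S34F replicate 1 and -0.0043 without S34F replicate 2. Their summed level was 2353, 2401 and 2378 CPM in wild type and 3065, 2544 and 2576 CPM in S34F, so that the groups did not overlap. As a share of all reads, without TMM scaling, the eIF3 subunits took 0.230%, 0.220% and 0.252% in wild type and 0.230%, 0.265% and 0.269% in S34F, and there the groups overlapped.

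EIF3G, a subunit with an RNA-binding domain, had the smallest p of the complex. Its levels were 254, 227 and 149 CPM in wild type and 424, 327 and 249 CPM in S34F. The highest wild-type library lay just above the lowest S34F library, the B2 one. The log2 fold change was 0.68 ± 0.27 (SE) with an adjusted p of 0.218, and the log2 difference was 0.63 in B1 and 0.74 in B2.

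EIF3L was the only eIF3 subunit whose groups did not overlap, at 200, 185 and 201 CPM in wild type and 250, 223 and 208 CPM in S34F. The gap was small beside the fitted error, with a log2 fold change of 0.21 ± 0.26 (SE) and an adjusted p of 0.748. EIF3K, which had 511, 607 and 256 CPM in wild type and 1035, 399 and 370 CPM in S34F, varied more among the S34F libraries than between the genotypes.

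The subunits of eIF3 differed in mean wild-type level, from 15.2 CPM for EIF3J to 458 CPM for EIF3K. Per kilobase of the models the reads came from, the spread was wider. A read here counts a cDNA molecule whatever its length, so division by length lowers long messages. In wild type the mean ran from 8.55 CPM per kilobase for EIF3J, a loosely bound subunit, to 591 for EIF3K. EIF3A, the largest subunit and the core of the complex with EIF3B and EIF3C, had 20.5 (56.0 CPM without the division). EIF3B had 24.8 (64.9 CPM), EIF3C 46.6 (126 CPM), EIF3M 232 (286 CPM) and EIF3I 225 (361 CPM). The models of EIF3A averaged 2727 bases per read and those of EIF3K 774 bases, and none of the 3 EIF3A models carried an annotated transcript ID. EIF3C has a near-identical copy, EIF3CL, with 1100 reads against 861 for EIF3C, and the copy EIF3FP3 held 1782 reads against 1178 for EIF3F. The deposited counts of these genes are uncertain for that reason.

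Of the 7 eIF4 genes found by ID, 0 were called by edgeR and 1 had an unadjusted p under 0.05. Their median log2 fold change was 0.02. EIF4E, the cap-binding subunit of eIF4F, had 24.4, 28.8 and 72.6 CPM in wild type and 26.3, 104 and 111 CPM in S34F. S34F replicate 1 sat with the wild-type B1 libraries, and the groups overlapped. The log2 fold change was 1.00 ± 0.40 (SE), with an adjusted p of 0.215. Without S34F replicate 1 it was 1.31 with an adjusted p of 0.00358, and without S34F replicate 2 it was 0.33, so each of these libraries moves the value. Over all alternatives the adjusted p ran from 0.00358 to 1.000. The gene had 379 reads in all, so counting error weighs on each library.

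EIF4G1, the scaffold of eIF4F, had 63.7, 50.1 and 78.5 CPM in wild type and 55.8, 48.8 and 100.1 CPM in S34F. EIF4G2, a relative of eIF4G that lacks the eIF4E site, had 51.8, 70.4 and 150.5 CPM in wild type and 32.9, 95.6 and 148 CPM in S34F. EIF4H, which aids the helicase eIF4A, had 172, 135 and 303 CPM in wild type and 117, 191 and 302 CPM in S34F. Their log2 fold changes lay between -0.01 and 0.06, each smaller than its SE.

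EIF4B, another helper of eIF4A, stood apart by library and not by genotype. Its level was 111, 117 and 1370 CPM in wild type and 235, 164 and 1243 CPM in S34F. The B2 library was 12-fold the mean of the B1 libraries in wild type and 6.24-fold in S34F. EIF4B was the only member over 4-fold in both genotypes, as were 3.77% of all 7033 tested genes and loci and 1.01% of the 5953 Ensembl genes among them. The reads came from 3 unannotated models that share the 3′ end at position 53435993 of chromosome 12 (hg19). These 3 models held 70.9, 67.02 and 1300 CPM in wild type and 176, 117 and 1166 CPM in S34F. The other 9 models of EIF4B together held 39.9, 50.1 and 70.2 CPM in wild type and 59.1, 46.7 and 77.5 CPM in S34F. With the B1/B2 term the log2 fold change of EIF4B was 0.48 ± 0.32 (SE), and without that term it was 0.04.

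The helicase genes need their retired IDs. EIF4A1, the main eIF4A, had 11.9, 18.7 and 11.9 CPM in wild type and 18.1, 12.7 and 9.45 CPM in S34F under its own ID. With 2650 reads moved from the retired ID, 833 on models with an EIF4A1 transcript ID and 1817 on models placed by their start, it had 397, 406 and 368 CPM in wild type and 531, 363 and 454 CPM in S34F. The groups overlapped, and the log2 fold change was 0.21 ± 0.29 (SE) with an adjusted p of 0.783. EIF4A2, its paralogue, had 28.6, 23.8 and 82.1 CPM in wild type and 11.5, 38.2 and 39.7 CPM in S34F, with a log2 fold change of -0.53 ± 0.40 (SE).

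EIF5B, the GTPase that joins the ribosomal subunits, had the largest difference of any member. Its level was 27.4, 37.3 and 60.1 CPM in wild type and 44.4, 152.9 and 97.3 CPM in S34F. S34F replicate 1 lay below wild-type replicate 3, so the groups overlapped. The log2 fold change was 1.26 ± 0.40 (SE), and the adjusted p was 0.111. It passed without S34F replicate 1, at 1.54 and an adjusted p of 0.000253, and with no filter on low counts, at 1.08 and 0.0488. Without S34F replicate 2 it was 0.57, and at equal depth in all libraries 0.73. Over all alternatives the adjusted p ran from 0.000253 to 1.000. All 4 models with at least 5% of EIF5B reads had a higher mean in S34F, but they are parts of the same gene total and not independent. None of the 5 EIF5B models carried an annotated transcript ID.

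EIF5, which makes eIF2 hydrolyse GTP at the start codon, had 985, 1445 and 1257 CPM in wild type and 519, 1019 and 708 CPM in S34F. Its highest S34F library lay just above the lowest wild-type library. The log2 fold change was -0.72 ± 0.34 (SE) with an adjusted p of 0.301. Without S34F replicate 2 it was -1.06 with an adjusted p of 0.0211, and over all alternatives the adjusted p ran from there to 1.000. The log2 difference was -0.71 in B1 and -0.83 in B2. EIF6, which keeps the large subunit from joining too early, had 1224, 1234 and 730 CPM in wild type and 1340, 735 and 640 CPM in S34F, with a log2 fold change of -0.23 ± 0.32 (SE). EIF5A, which carries hypusine and frees ribosomes stalled at proline runs, had 959, 584 and 488 CPM in wild type and 941, 854 and 472 CPM in S34F.

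Of the elongation factors found by ID, 0 were called and 0 had an unadjusted p under 0.05. EEF1A1 was the most abundant member per kilobase, at 1819 CPM per kilobase in wild type and 2137 in S34F. Its levels were 2636, 3398 and 4027 CPM in wild type and 3712, 3657 and 4449 CPM in S34F. EEF1D, the delta subunit of eEF1B, had 924, 781 and 312 CPM in wild type and 1171, 1098 and 484 CPM in S34F, the smallest p among the eEF1 genes at an adjusted p of 0.436. EEF1B2, the catalytic subunit of the exchange factor, had 236, 213 and 215 CPM in wild type and 296, 215 and 230 CPM in S34F. A copy, EEF1B2P3, held 1280 reads against 1533 for EEF1B2, and EEF1A1P5 held 643 against 23893 for EEF1A1. EEF2 had 344, 338 and 397 CPM in wild type and 552, 302 and 323 CPM in S34F.

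EEF1G, the gamma subunit of eEF1B, was read under a retired ID with 8717 reads. Of these, 8136 were moved to EEF1G, 4159 on models with its transcript ID and 3977 on models placed by their start. The other 581, on a model that begins over 500 bases before the annotated EEF1G transcript, were left out of the gene count. Its level was then 1311, 1376 and 934 CPM in wild type and 2167, 1459 and 1245 CPM in S34F. The highest wild-type library exceeded the S34F B2 library, so the groups overlapped, and the log2 fold change was 0.43 ± 0.32 (SE) with an adjusted p of 0.542. Of the 8 members found by ID that are known as messages with a 5′ terminal oligopyrimidine tract (EEF1A1, EEF1B2, EEF1D, EEF2, EIF3E, EIF3F, EIF3H and EIF4B), 0 were called and 0 had an unadjusted p under 0.05. Their log2 fold changes ran from 0.03 to 0.48, all 8 above 0, and 4 of the 8 turned in at least 1 alternative, among them EEF2 (-0.24 without S34F replicate 1) and EIF3E (-0.07 without S34F replicate 2). The ribosomal protein genes, other messages of this class, gave 0 calls of 82 tested, with 4 at an unadjusted p under 0.05 on the higher side and 4 on the lower. These made up 9.76% of the 82, against 17.0% of all tested. Of the 82, 68 were above 0, or 82.9% against 51.6% of all tested, with a median of 0.28. This rested on 1 library, since without S34F replicate 1 the count above 0 was 40 of 82 and the median -0.01.

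**Figure D3:**
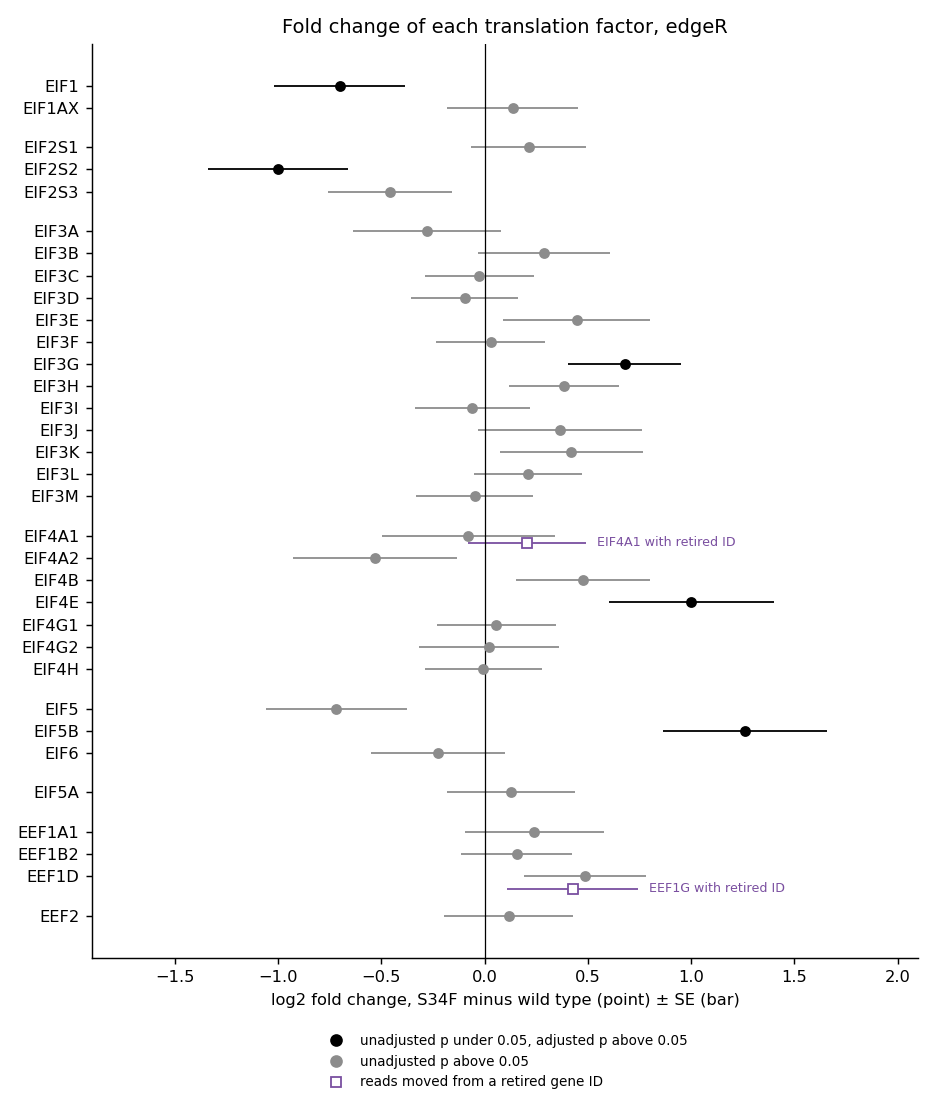
Fold change of each member between S34F and wild type on the log2 scale (point) with its standard error (bar), from edgeR; black marks the 5 members with an unadjusted p under 0.05, grey the rest, and open squares the 2 genes with reads moved from a retired ID. EIF5B lies farthest to the right at 1.26 and EIF2S2 farthest to the left at -0.999, and no member passed the adjusted threshold.

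B1 and B2 libraries differed for many members in the same way in both genotypes. B2 was above the B1 mean in both genotypes for 19 of 33 members and below it in both for 10. The 19 had a median model length per read of 2016 bases, and the 10 of 1126 bases. Over the 33 members the rank correlation of B2 minus B1 in wild type with that in S34F was 0.91, and with model length it was 0.66 in each genotype. Both are descriptions over genes that share the same 6 libraries. The mean model length per member read was 1527 to 1596 bases in the B1 libraries and 1806 to 1828 bases in the B2 libraries. The part of this in the genotype results was not tested beyond the B1/B2 term. B1 and B2 gave the genotype difference the same sign for 22 of 33 members, 66.7%, and for 69.9% of all genes and loci tested.

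**Figure D4:**
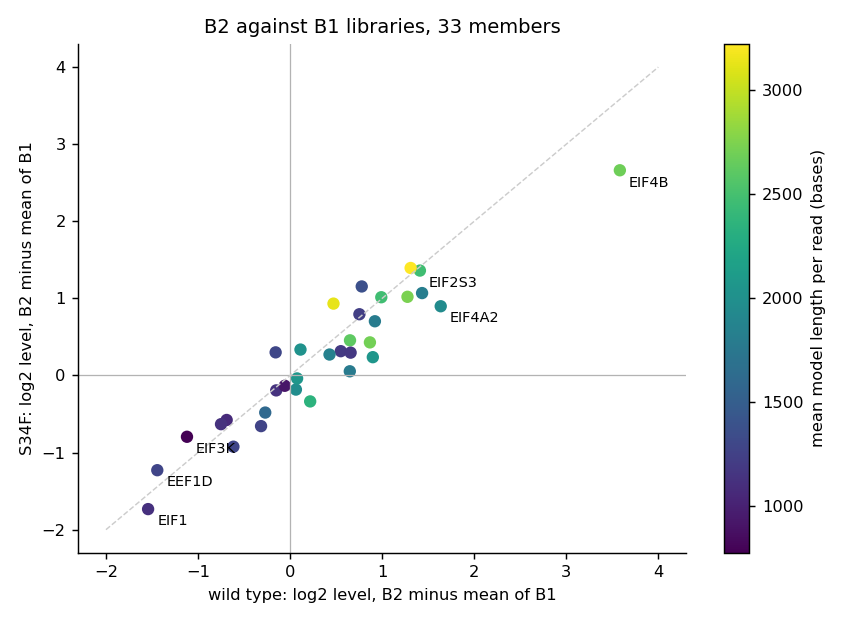
B2 library minus the mean of the B1 libraries, in log2 CPM, for each of 33 members in wild type (horizontal axis) and S34F (vertical axis), coloured by the mean model length per read; the dashed line marks equal differences. Members with long models lie towards the upper right, members with short models towards the lower left, and EIF4B lies farthest out.

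The members were assembled into many isoforms. They had 495 models, 103 with an annotated transcript ID, and a median of 11 models per gene against 4 for tested Ensembl genes. These medians were not matched for reads per gene, which ran from 89 to 23893 among the members. The annotated models held 51.4% of member reads. EEF1D had the most models, 78, and EEF1A1 had 48. Isoform usage, the split of a gene's reads among its models, was tested in 30 members. None of them was called (edgeR, Simes p adjusted over 2276 genes), against 0.615% of all genes tested, and 0 were called with limma-voom. An unadjusted p under 0.05 was reached by 1 member, or 3.33%, against 6.2% of all genes tested.

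That member was EIF3M, with an adjusted p of 0.554. Its 11-exon model with the later-described 78-base segment took 7.44%, 7.30% and 3.04% of EIF3M reads in wild type and 0.943%, 2.31% and 1.99% in S34F. The groups did not overlap, but wild-type replicate 3 lay close to the S34F libraries. In EIF1AX a 2-exon model took 6.21%, 8.66% and 21.4% of reads in wild type and 4.76%, 5.13% and 8.51% in S34F, highest in the B2 library of each genotype. In EIF4H the annotated model with the 60-base exon took 28.0%, 25.2% and 29.8% in wild type and 38.0%, 40.0% and 32.8% in S34F, and the groups did not overlap. A shorter EIF4H model with a nearer 3′ end took 7.96%, 5.66% and 7.45% in wild type and 2.82%, 4.44% and 3.44% in S34F. A 7-exon EIF3K model, which took under 4% of reads in every library, and minor models of EEF1D and EIF1 completed the 6 members with the smallest usage p, each with an adjusted p of 1.000.

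Splicing events were compared as the share of reads that include an exon, segment or intron among reads that could show it. Of 262 tested events in members found by ID, 0 were called (edgeR, adjusted over 17348 events), against 1.27% of all events. An unadjusted p under 0.05 was reached by 17, or 6.49%, against 9.48% of all events, and limma on log odds also called 0. The EIF3K exon described below was the only member event called in any alternative. The groups did not overlap in 22 of the 262, or 8.4%, against 14.5% of all events. The median absolute difference of the member events was 0.88 percentage points and that of all events 1.27 points. The events of 1 gene share reads, so they are not independent.

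With the retired IDs, all their models included, 303 events were tested and 2 were called, against 1.27% of all events. Both were retained introns that fell in S34F, among 55 retained introns tested in these genes. Of 2525 retained introns tested over all genes, 24 were called higher and 13 lower. In EIF4A1, the intron at positions 7481025 to 7481144 of chromosome 17, whose end is shown above, was kept in 63 of 651, 38 of 463 and 61 of 604 reads in wild type. In S34F it was kept in 13 of 313, 10 of 166 and 22 of 485 reads. These are 9.68%, 8.21% and 10.1% against 4.15%, 6.02% and 4.54%, and every S34F library was below every wild-type library. The intron fell from 9.33% ± 0.99 to 4.90% ± 0.99 (SD, n = 3 each), by 1.08 in log2 odds, with an edgeR adjusted p of 0.0132. The call was lost with the replicate block (adjusted p of 0.127), without the B1/B2 term (0.251) and with limma on log odds (0.516). Leaving out wild-type replicate 1 or 3 or S34F replicate 1 or 3 also ended it, with adjusted p of 0.192 to 0.534. Over the 6 left-out libraries the log2 odds lay between -1.21 and -0.94. Without the model that begins upstream of the annotated transcripts the means were 9.61% and 5.06%, with an adjusted p of 0.0144.

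The second was an 88-base intron of EEF1G at positions 62327666 to 62327753 of chromosome 11. It was kept in 20 of 2185, 8 of 1608 and 8 of 1550 reads in wild type and in 3 of 1314, 0 of 682 and 1 of 1305 reads in S34F. The count of 0 allows a share of up to 0.440%. The intron fell from 0.643% ± 0.236 to 0.102% ± 0.116 (SD, n = 3 each), with an edgeR adjusted p of 0.0354. It rests on 40 reads, and the call was lost in 9 of 12 alternatives. Among these were limma on log odds (adjusted p of 0.448), the replicate block (0.0512) and each left-out library but wild-type replicate 2. Without the model that begins upstream the means were 0.689% and 0.110%, with an adjusted p of 0.0359. For 3 further introns of EIF4A1, the readings were also lower in S34F but did not pass. The share kept was 3.47%, 2.98% and 3.77% in wild type and 1.88%, 2.96% and 1.84% in S34F for the 363-base intron at position 7480011, and the other 2 rest on the same 80 reads. A 123-base intron of EIF4A1 was also tested and did not pass. It had 51, 41 and 63 informative reads in wild type and 22, 14 and 44 in S34F.

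**Figure D5:**
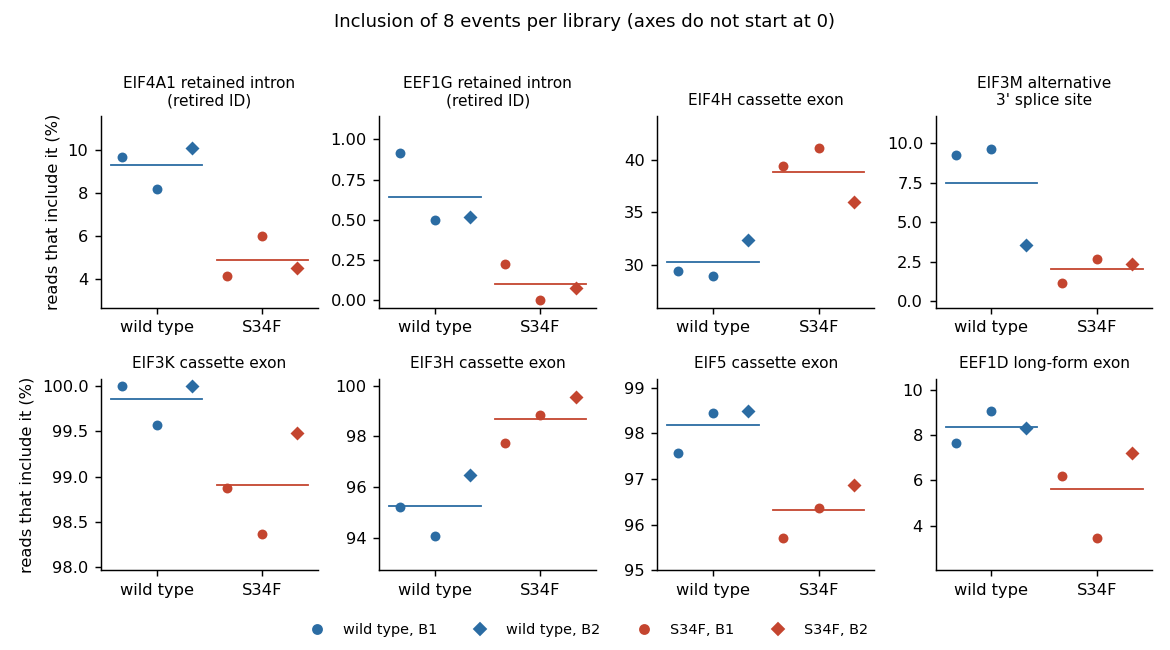
Share of reads that include each of 8 events, in percent, per library; blue is wild type, red is S34F, circles are B1 and diamonds are B2 libraries, lines are group means, and each panel has its own axis, which need not start at 0. The EIF4A1 intron falls from 9.33% to 4.90%, the EIF4H exon reads 30.2% and 38.8%, and only the 2 intron panels passed the adjusted threshold.

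The 60-base exon of EIF4H was included in 29.4%, 28.9% and 32.4% of reads in wild type and 39.4%, 41.1% and 35.9% in S34F. All 3 S34F libraries were above all 3 wild-type libraries, and the B2 pair was the closest. The means were 30.2% ± 1.85 and 38.8% ± 2.64 (SD, n = 3 each), a difference of 8.60 points. The edgeR adjusted p was 0.588, from 476 reads with the exon and 963 without. It was the largest difference among the 22 member events whose groups did not overlap.

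In eIF3 genes, 3 events stood near the top of the member list. The 67-base exon of EIF3K shown above was skipped in 0 of 847, 3 of 705 and 0 of 423 reads in wild type and in 7 of 623, 3 of 184 and 2 of 383 reads in S34F. Its adjusted p was 0.0688, and without wild-type replicate 2, which holds the only wild-type reads that skip it, it was 0.0224. In EIF3M the use of the upstream 3′ splice site, which adds 78 bases, was 9.24%, 9.62% and 3.57% in wild type and 1.16%, 2.65% and 2.37% in S34F. The S34F libraries were all lower, and the adjusted p was 0.129. A 168-base exon of EIF3H was included in 95.2%, 94.1% and 96.5% in wild type and 97.7%, 98.8% and 99.5% in S34F, with an adjusted p of 0.168.

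In EIF5, a 209-base exon at positions 103800726 to 103800934 of chromosome 14 was included in 97.6%, 98.5% and 98.5% of reads in wild type and 95.7%, 96.4% and 96.9% in S34F. The groups did not overlap, with an adjusted p of 0.142. A 337-base alternative 5′ splice site segment of EIF5, from the same reads, stood at 97.7%, 98.5% and 98.5% in wild type and 95.8%, 96.7% and 96.9% in S34F. In EIF5A, a 132-base exon at position 7214669 of chromosome 17 was included in 98.7%, 97.8% and 94.9% in wild type and 99.1%, 100% and 96.6% in S34F, with overlapping groups.

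The long form of EEF1D, which encodes an extended protein known as a heat-shock-responsive regulator, depends on an exon of 1091 bases. The exon was included in 7.64%, 9.09% and 8.33% of informative reads in wild type and 6.19%, 3.43% and 7.23% in S34F. All S34F libraries were lower, with means of 8.35% ± 0.73 and 5.62% ± 1.97 (SD, n = 3 each) and an adjusted p of 0.247. In EEF1A1 the 75-base segment was included in 94.1%, 90.6% and 92.4% in wild type and 92.5%, 94.6% and 96.8% in S34F, with overlapping groups and an adjusted p of 0.308. In EEF2 the 12-base segment was included in 90.5%, 91.6% and 90.6% in wild type and 93.8%, 93.3% and 93.9% in S34F. These groups did not overlap, as in 8.4% of member events and 14.5% of all events, and the edgeR adjusted p was 0.481.

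EIF4A2 has an exon of 107 or 111 bases (from position 186506099 of chromosome 3) in part of its messages. No event of EIF4A2 reached 10 informative reads in every library, so none was tested. Models with the exon held 22, 15 and 47 reads in wild type and 3, 11 and 22 reads in S34F. Models that span it without including it held 20, 12 and 85 reads in wild type and 2, 7 and 12 reads in S34F. Over the pooled reads this was 41.8% in wild type (95% Wilson interval 35.2% to 48.7%, 201 reads) and 63.2% in S34F (50.2% to 74.5%, 57 reads). The share was 52.4%, 55.6% and 35.6% in the wild-type libraries and 60%, 61.1% and 64.7% in the S34F libraries. Without wild-type replicate 3, which gave most of the wild-type reads, the pooled wild-type share was 53.6%. The intervals cover counting error only.

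The base before the AG was read from GENCODE transcripts for 44 of 127 tested cassette exons of the members and the retired IDs. The longest exons and all exons on chromosome 8, those of EEF1D, EIF3E and EIF3H, were left out beforehand. The base was C in 29 and T in 12. The median difference in inclusion was 0.20 points for the 29 and -0.17 points for the 12, with 19 of 29 and 6 of 12 higher in S34F. The base was A in 2, both higher with a median of 2.80 points, and G in 1, at -4.72 points. Over the 44 the median was 0.11 points, and over all 127 it was 0.27 points, above that of the 29. These are descriptions of few exons that share genes and libraries.

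The 3′ end of messages was compared as the share of reads at the distal of the 2 most used ends. It was tested in 28 members, of which 0 were called (edgeR, adjusted over 2399 genes), against 0.834% of all genes tested. An unadjusted p under 0.05 was reached by 2, or 7.14%, against 7.63% of all genes tested, and limma on log odds called 0. In EIF1AX the distal end, 490 bases on, took 6.29%, 9.02% and 22.4% in wild type and 4.88%, 5.19% and 9.23% in S34F, with an adjusted p of 0.380. In EIF4H the distal end took 91.9%, 94.1% and 92.4% in wild type and 97.1%, 95.5% and 96.5% in S34F, where the groups did not overlap and the adjusted p was 0.411. EIF2S3 stood at 91.2%, 93.5% and 94.2% in wild type and 96.6%, 96.8% and 95.6% in S34F. EIF5A stood at 96.6%, 99.0% and 98.7% in wild type and 96.9%, 97.3% and 96.4% in S34F.

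Other genes of translation were read from lists of related genes. Of 15 tested paralogues and further initiation and elongation genes, 0 were called, 3 had an unadjusted p under 0.05 on the higher side and 2 on the lower. That is 33.3% of the 15, against 17.0% of all genes and loci tested. The smallest p belonged to EIF4A3, the eIF4A relative of the exon junction complex, at 140, 102 and 157 CPM in wild type and 177, 223 and 298 CPM in S34F, with an adjusted p of 0.149. EIF2D, which can load initiator tRNA without eIF2, had 28.6, 15.3 and 24.4 CPM in wild type and 11.5, 12.7 and 7.56 CPM in S34F, with an adjusted p of 0.172.

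Among 19 tested regulators of the factors, 1 was called, against 3.24% of all genes and loci tested, and it was lower in S34F. PPP1R15A, which brings a phosphatase to the alpha subunit of eIF2, fell from 256, 260 and 227 CPM in wild type to 27.9, 44.6 and 42.5 CPM in S34F. Its log2 fold change was -2.68 ± 0.30 (SE) with an adjusted p of 0.000175. EIF2B2, the beta subunit of the exchange factor of eIF2, had 121, 113 and 97.6 CPM in wild type and 39.4, 65.8 and 52.9 CPM in S34F, with an adjusted p of 0.0593. Of 12 tested targets of the stress response that eIF2 phosphorylation sets off, PPP1R15A among them, 5 fell and 0 rose, against 3.24% of all genes and loci tested called in either direction. The list was made with earlier results of these libraries known, so this count is no independent evidence of its direction. In the same libraries the message of the eIF2 alpha subunit, EIF2S1, stood at 0.21 ± 0.28 (SE), and phosphorylation was not measured.

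Termination, recycling and poly(A)-binding genes gave 0 calls of 8 tested and mitochondrial translation factors 0 of 7. In either list 0 had an unadjusted p under 0.05, against 17.0% of all genes and loci tested. PABPC4, a poly(A)-binding protein, had a log2 fold change of 0.33 ± 0.31, and ABCE1, which splits ribosomes after termination, -0.48 ± 0.49. MRRF, the mitochondrial recycling factor, stood at 0.38 ± 0.30, and MTIF2, the mitochondrial counterpart of eIF5B, at -0.59 ± 0.60 (SE for all 4).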

How the data were processed

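The deposited count table gives whole reads per isoform for 6 nanopore cDNA libraries, and the deposited isoform models give exon positions on hg19, per the submitters' processing notes. The aligner, its version and the read filters were not given in the sources used here. 0 per-sample columns were left unmatched. Gene counts were sums over the isoforms of an Ensembl ID or unnamed locus. They were tested with edgeR 4.0.16 (TMM, filterByExpr with at least 10 reads, quasi-likelihood, a term for B1/B2, 3 residual degrees of freedom, Benjamini-Hochberg adjusted p under 0.05). Usage was tested with diffSpliceDGE. Events and 3′ ends (merged within 100 bases) were tested as paired counts with at least 10 reads per library. In these 2 models edgeR estimated no variation of the dispersion between features, so their p-values rest on a dispersion shared across features. limma 3.58.1 and DESeq2 1.42.0 were alternatives, and the fits were tested on simulated data. CPM are counts scaled to the TMM-adjusted total of the tested features. At a depth of 451540 to 1720292 reads a count of 0 leaves room for 3 reads, and intervals and limits cover counting error only.

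Deviations from the group means correlated between same-numbered libraries of the 2 genotypes at 0.469, 0.138 and 0.825 over tested genes for replicates 1, 2 and 3, so the replicate number was also fitted as a block. Within B1 the differently numbered libraries correlated at 0.288 and 0.506, so there the numbers did not separate pairs. The members and lists were chosen with earlier results of these data known. Named were members with an unadjusted p under 0.05 and the member of each complex with the smallest p. Also named were the members with calls or the smallest p for usage, events and 3′ ends, and the exons of EIF4H, EIF4A2 and EEF1D. From the other lists the called or leading genes were named. Of the 5 called stress response targets, however, only PPP1R15A was named. The remaining members, the copies, the retired IDs and the EEF2 segment were named after their values were seen. Models under the 2 retired IDs were moved to EEF1G or EIF4A1 when they begin no more than 500 bases before the annotated transcripts, while their splicing events used all models unless stated. Gene names came from a table that matched 10482 of 11034 IDs.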

Additional observations from a re-analysis of the deposited data

Results flagged for a closer look

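Reads of 2 members lie outside their own gene IDs. Under a retired Ensembl ID lie 8717 reads, of which 8136 are on models placed at EEF1G, which has no row under its current ID. Under another lie 2732 reads, of which 2650 are on models placed at EIF4A1, whose own ID holds 89 reads. The other 581 and 82 reads, on models that begin farther upstream, were left out of the gene counts. The retired IDs were recognised by transcript IDs, after the data were seen. Transcript IDs of the 2 genes are on models with 4159 of the 8136 reads moved to EEF1G and 833 of the 2650 moved to EIF4A1, and the rest were placed by where the model begins. Both splicing events called for translation factors, the EIF4A1 and EEF1G introns, come from these reads.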

How the results depend on the processing

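No member was called at the gene level by edgeR in the fit reported above or with the replicate block, DESeq2, limma-voom, equal depth, B1 libraries only, at least 10 reads in every library, isolate 2 libraries summed, no B1/B2 term or reads moved from retired IDs, with 0 to 6 at an unadjusted p under 0.05. With no filter on low counts 2 were called, and leaving out 1 library gave 0 to 3. Over all genes and loci 228 were called, and 2 without the B1/B2 term, 79 in the B1 libraries only, 72 with at least 10 reads in every library, 44 at equal depth, 0 with the isolate 2 libraries summed (287 at an unadjusted p under 0.05) and 491 with no filter. Leaving out 1 library gave 67 to 655, and the replicate block 187. With no filter the median log2 fold change of all features was -0.22, against 0.02.

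Without the upstream models of the retired IDs both introns were still called. Member events gave 0 to 1 calls on leaving out 1 library and 2 with the retired IDs counted. In log2 odds the EIF4A1 intron was -1.08, and -0.97 with limma, -1.06 with the replicate block, -1.04 without the B1/B2 term and -1.21 to -0.94 on leaving out 1 library. The EEF1G intron was -2.31, and -2.32 with limma, -2.31 with a minimum of 20 reads, -2.39 with the replicate block, -2.34 without the B1/B2 term and -3.29 to -1.95 on leaving out 1 library. The cause of these changes was not tested. Isoform usage and 3′ ends gave 0 member calls in every alternative run. The alternatives on retired IDs and on the introns were chosen after seeing the data. Depth limits members such as EIF4A2, with 281 reads in all.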
